A study of Mus musculus with 16 samples.

Results

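Disease-associated microglia genes are described here in microglial nuclei of the mouse hippocampus and, for comparison, in the other classes of nuclei. The members were a list of 32 gene symbols that names genes of this state, and 31 of them matched a row among the 32285 genes of the count matrices. Clec7a had no row with that symbol, so it has no expression values here. The 31 genes were read in 147873 nuclei (at least 500 unique molecular identifiers, or UMIs, at least 300 genes and at most 5% mitochondrial UMIs), of which 136828 were kept after removal of doublets and 5809 were microglia.

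The disease-associated state is a transcriptional programme that microglia take on near amyloid, tau and myelin damage. The receptor TREM2 and its adaptor TYROBP sense lipids and debris. In this state surface receptors such as ITGAX and the tetraspanins CD9 and CD63 are known to rise. Lysosomal and lipid-handling genes such as Lpl, Cst7 and Gpnmb and secreted factors such as SPP1, CSF1 and IGF1 rise too. Genes of the surveying state such as P2ry12 and Tmem119 fall. Nuclear RNA, which was measured here, is known to report some of these genes less well than whole-cell RNA.

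The hippocampal samples were 16 libraries labelled as female and 9 months old, in 4 groups of 4. Ch25h+/+ Tau+ and Ch25h-/- Tau+ carry tau, and their counterparts without it are Ch25h+/+ Tau- and Ch25h-/- Tau-. Ch25h encodes cholesterol 25-hydroxylase, which makes the oxysterol 25-hydroxycholesterol, and the labels give the knockout only as -/-. The labels give tau only as + or -, and the tau line, its promoter and the cells that express it are not given in the sources used here. The tau effect is Tau+ against Tau-, and Ch25h loss is Ch25h-/- against Ch25h+/+. Each library has a title of its own, but no label says that the 4 of a group came from separate mice, so p-values measure the spread between these samples. Replicate numbers follow the order of deposit, and no label pairs the libraries.

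Libraries held 8130 to 11654 nuclei and 165 to 601 microglia, with a median of 1066 to 1994 UMIs per microglial nucleus. These medians were 1335.5 to 1994 in Tau+ and 1066 to 1561 in Tau- libraries, so levels are given as UMIs per 1000000 of the same nuclei's UMIs (CPM). Those of single libraries in microglia are TMM-scaled, and those pooled over libraries are not. The microglial cluster had all 16 of its marker genes at least 2-fold above the other nuclei, with Csf1r at 1030.2 CPM against 1.21 in dentate granule neurons. P2ry12 was the marker highest in those neurons, at 114 CPM against 978 in microglia. Ch25h itself gave 94 (Tau+) and 38 (Tau-) UMIs over all nuclei of Ch25h+/+ libraries and 96 (Tau+) and 75 (Tau-) where the label is Ch25h-/-, so it was not lower under that label. The deleted part of the gene is not given in the sources used here, so groups are named as labelled. In microglia its UMIs came from Tau+ libraries, 33 with the label Ch25h+/+ (20 of them in replicate 1, leaving 13 without it) and 7 with the label Ch25h-/-. Gm43049, a transcript that follows the tau label in all 16 libraries, lay between 67.4 and 87.0 CPM in all 8 Tau+ libraries and at most at 0.207 in Tau- libraries. Replicate 3 of each Tau+ group stood apart from the other Tau+ libraries for most members, although Gm43049 placed both with the Tau+ group. Libraries also fell on either side of a split made from the data, with replicates 1 and 2 of each group opposite replicates 3 and 4, for 15 of 16 libraries in microglia and 16 of 16 in 7 other classes. Pairs of libraries shared 10 to 40 nucleus barcodes and at most 1 microglial barcode.

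RefSeq promoter windows (GRCm38.p6, 250 bases before to 50 after the start) were found for 24 of the 32 symbols. Tyrobp, Lilrb4a, Cd52, Lpl, Atp6v0d2, Ccl4, Mamdc2 and Arhgap24 were not among them. The windows were searched on both strands for 4 short motifs. These were a relaxed form of the AP-1 heptamer (TGANTCA), a relaxed box of the MiT/TFE lysosomal regulators (TCANGTG), a core of ETS factors such as PU.1 (GAGGAA), and the TATA box (TATAAA). N stands for any base, so both relaxed forms also take letters outside the strict sites. AP-1 heptamer and MiT/TFE box mean these relaxed forms below. The AP-1 heptamer stood in 8 of the 24 members' windows (29.6% of their 27 windows), against 7.81% of all 32851 windows. The MiT/TFE box stood in 22.2% of member windows against 14.3% of all, the ETS core in 44.4% against 28.3% and the TATA box in 14.8% against 13.6%. These 24 members include Clec7a, whose 2 windows both hold the ETS core. Over the 25 windows of the 23 members with a row in the matrices the shares were 32% for the AP-1 heptamer, 24% for the MiT/TFE box, 40% for the ETS core and 12% for the TATA box. The 250 bases before the start are shown for 3 members that were higher in Tau+ microglia and hold the AP-1 heptamer there, and for Trem2, which holds it too and was not called. Sequences run 5′ to 3′ in the direction of the gene, and capitals mark any of the 4 motifs on either strand.
Itgax (chr7:128129300-128129549, plus strand): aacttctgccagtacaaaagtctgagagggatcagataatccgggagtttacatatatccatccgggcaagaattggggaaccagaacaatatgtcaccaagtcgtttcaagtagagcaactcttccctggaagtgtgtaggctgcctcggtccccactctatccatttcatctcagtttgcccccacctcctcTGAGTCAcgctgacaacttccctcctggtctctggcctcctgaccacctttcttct
Igf1 (chr10:87860861-87861110, plus strand): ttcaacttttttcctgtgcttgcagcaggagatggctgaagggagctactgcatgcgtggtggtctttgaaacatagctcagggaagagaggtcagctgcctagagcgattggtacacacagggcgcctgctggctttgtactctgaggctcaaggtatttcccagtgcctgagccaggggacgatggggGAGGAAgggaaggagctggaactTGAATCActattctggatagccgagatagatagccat
Cybb (chrX:9469325-9469574, minus strand): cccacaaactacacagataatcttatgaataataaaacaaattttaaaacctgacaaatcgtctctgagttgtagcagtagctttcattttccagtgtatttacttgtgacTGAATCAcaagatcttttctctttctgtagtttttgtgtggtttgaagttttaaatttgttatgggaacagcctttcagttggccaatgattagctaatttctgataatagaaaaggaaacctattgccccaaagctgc
Trem2 (chr17:48346151-48346400, plus strand): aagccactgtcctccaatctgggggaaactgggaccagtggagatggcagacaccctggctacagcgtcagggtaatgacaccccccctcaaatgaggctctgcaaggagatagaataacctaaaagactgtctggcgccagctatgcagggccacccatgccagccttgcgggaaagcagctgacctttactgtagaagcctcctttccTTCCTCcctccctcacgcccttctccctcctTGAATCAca
The AP-1 heptamer began 56 bases before the start of Itgax, 37 before that of Igf1, 139 before that of Cybb and 9 before that of Trem2. It read TGAGTCA in Itgax and TGAATCA in Igf1, Cybb and Trem2. The Igf1 and Cybb windows lie inside those genes' spans in the annotation used for their coordinates. A match is a description of letters and not of binding.

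In microglia 21 of the 26 members that passed the filter on low counts were higher in Tau+ than in Tau- libraries over both Ch25h genotypes, and 0 were lower (edgeR's quasi-likelihood test, adjusted p under 0.05). Over all 8438 genes tested, 5.56% were called higher and 3.59% lower (9.15% in either direction). Members low without tau could pass that filter only through their Tau+ libraries, so the counts and the median describe the genes that passed. Their median log2 fold change was 1.70, where that of all genes was -0.00, and all 26 tested members had a value above 0. The median was 1.06 over 27 tested members when the members were kept among the variable genes used for clustering, and 2.68 over 31 in replicates 1 and 2 alone. By role, 5 of 8 tested receptors and adaptors, 5 of 5 lysosomal, lipid and phagocytosis genes, 6 of 7 secreted factors and 5 of 6 genes of iron storage, transport, hypoxia and the cytoskeleton rose. The 5 members not called were Trem2, Tyrobp, Cd84, Ccl6 and Fth1. No member had all 8 Tau+ libraries above all 8 Tau- libraries, where 0.474% of all genes did. Of the 26 tested members 20 had at least 6 Tau+ libraries above every Tau- library, where 4.47% of all genes did. The lowest Tau+ library was Ch25h+/+ Tau+ replicate 3 for 16 members and Ch25h-/- Tau+ replicate 3 for 13, and the highest library of all was Ch25h+/+ Tau+ replicate 1 for 18. Without both replicates 3, an alternative chosen after these values were seen, 25 members were called higher of 29 tested, where 7.33% of all 8666 genes were.

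**Figure D1:**
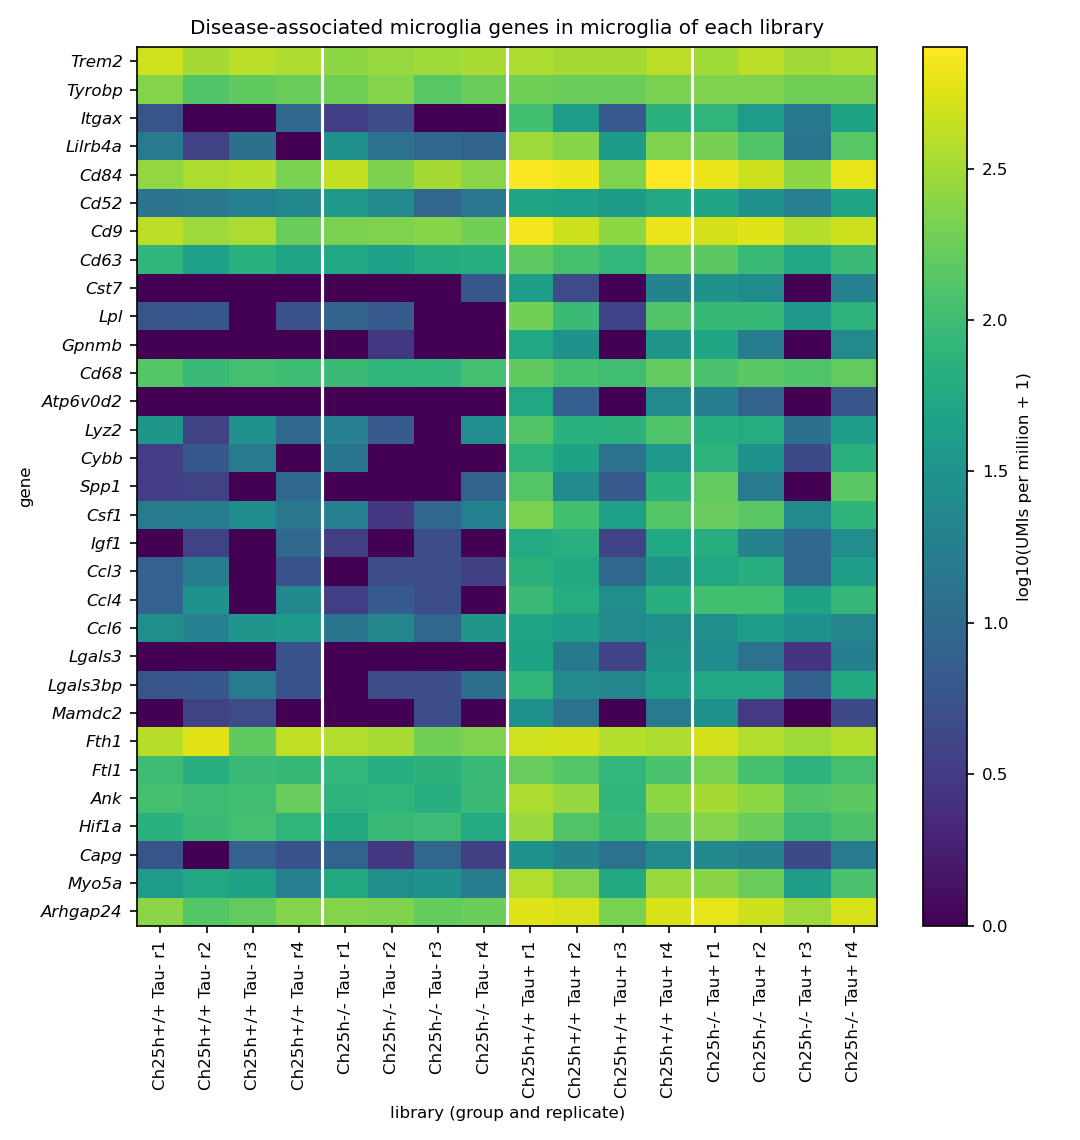
Level of each of the 31 members (rows) in microglia of each of the 16 libraries (columns), as log10 of CPM plus 1, with white lines between groups of 4. Trem2 and Tyrobp are about even across columns. Members such as Lpl, Spp1 and Itgax are dark in the 8 Tau- libraries on the left, and replicate 3 (r3) is the darkest Tau+ column of most rows.

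Among the receptors, TREM2 and TYROBP, the lipid-sensing receptor and its signalling adaptor, were not called. Trem2 stood at 347, 320.0, 319.6 and 401 CPM in replicates 1 to 4 of Ch25h+/+ Tau+, at 303, 402, 316 and 354 in Ch25h-/- Tau+, at 488, 321, 393 and 349 in Ch25h+/+ Tau- and at 253, 286, 306 and 337 in Ch25h-/- Tau-. All 4 groups overlapped, and the tau effect over both Ch25h genotypes was 0.03 (SE 0.10, adjusted p = 0.915). SE here and below is the absolute log2 fold change divided by the square root of the test's F statistic. Tyrobp lay at 176 to 219.6 CPM in Tau+ and 128 to 232 in Tau- libraries, with a tau effect of 0.12 (SE 0.12, adjusted p = 0.642). Itgax (GRCm38 chr7:128129547-128150657), the integrin CD11c, was near 0 without tau. Itgax stood at 105, 38.9, 5.76 and 71.2 CPM in replicates 1 to 4 of Ch25h+/+ Tau+, at 79, 37.6, 14 and 46.9 in Ch25h-/- Tau+, at 4.71, 0, 0 and 8.74 in Ch25h+/+ Tau- and at 2.48, 3.84, 0 and 0 in Ch25h-/- Tau-. Every Tau+ library but Ch25h+/+ Tau+ replicate 3 lay above all Tau- libraries, and the log2 fold change was 4.30 (SE 0.75, adjusted p = 0.00267). Lilrb4a (chr10:51490956-51496611), an inhibitory immunoglobulin-like receptor whose reads could be shared with a near-identical neighbouring copy, rose in the same comparison. Lilrb4a stood at 301, 237, 37.4 and 219 CPM in replicates 1 to 4 of Ch25h+/+ Tau+, at 203, 129, 12.3 and 139 in Ch25h-/- Tau+, at 14.1, 2.66, 10.6 and 0 in Ch25h+/+ Tau- and at 27.3, 11.5, 8.06 and 7.71 in Ch25h-/- Tau-. Both replicates 3 were the lowest Tau+ libraries, Ch25h-/- Tau+ replicate 3 lay inside the Tau- range, and the log2 fold change was 3.92 (SE 0.67, adjusted p = 0.00312).

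The tetraspanins and small surface proteins rose by less. Cd9 (chr6:125460266-125494791), a tetraspanin of the plasma membrane, rose by 0.97 (SE 0.19, adjusted p = 0.00549) on the log2 scale and lay at 253 to 698 CPM in Tau+ and 179 to 413 in Tau- libraries. Cd63, a tetraspanin of late endosomes, rose by 0.95 (SE 0.20, adjusted p = 0.00381), and Cd52, a small glycoprotein of leukocytes, by 1.21 (SE 0.26, adjusted p = 0.00382). Cd84, a receptor of the SLAM family, was at 771, 678, 219 and 797 CPM in Ch25h+/+ Tau+ and 656, 478, 258 and 615 in Ch25h-/- Tau+, against 205 to 429.6 in Tau-. Its 2 low Tau+ libraries were both replicates 3, and it did not pass the test, with a log2 fold change of 0.90 (SE 0.28, adjusted p = 0.0717). The adjusted p of Cd84 ranged from 3.90e-05 to 0.756 over the alternatives and was under the threshold in 4 of them.

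All 5 tested lysosomal, lipid and phagocytosis genes were higher with tau. Lpl (chr8:68880491-68907448), lipoprotein lipase, was the one with the smallest adjusted p of this group. Lpl stood at 193, 94.1, 2.88 and 129 CPM in replicates 1 to 4 of Ch25h+/+ Tau+, at 87.9, 87.8, 35.1 and 73.7 in Ch25h-/- Tau+, at 4.71, 5.31, 0 and 4.37 in Ch25h+/+ Tau- and at 7.45, 5.76, 0 and 0 in Ch25h-/- Tau-. The Tau- libraries were at 0 to 7.45 CPM, 7 Tau+ libraries at 35.1 or above, and Ch25h+/+ Tau+ replicate 3 among the Tau- values, with a log2 fold change of 4.49 (SE 0.72, adjusted p = 0.00196). By an estimate from near-empty barcodes, free RNA would account for 69.2% of the few Tau- Lpl UMIs and 2.10% of the Tau+ ones. Gpnmb (chr6:49036546-49070929), a glycoprotein of lysosomes and melanosomes, had 1 UMI in the 8 Tau- libraries and 170 in Tau+. It stood at 53.2, 30.1, 0 and 33.2 CPM in Ch25h+/+ Tau+ and 51, 15.7, 0 and 23.5 in Ch25h-/- Tau+, with both replicates 3 at 0. Pooled over libraries it was 84.1-fold higher (95% counting interval 14.9 to 3341), and its test gave an adjusted p of 0.0260. Without any 1 of the 4 Ch25h-/- Tau- libraries that adjusted p rose above the threshold, to at most 0.111. Intervals and bounds of this kind cover counting error only.

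Lyz2, lysozyme of macrophages, was at 129, 70.3, 72 and 125 CPM in Ch25h+/+ Tau+ and 65, 61.7, 10.5 and 41.9 in Ch25h-/- Tau+, and at 0 to 33 in Tau- libraries, with a log2 fold change of 2.13 (SE 0.46, adjusted p = 0.00932). Cybb, the catalytic subunit of the phagocyte NADPH oxidase, was at 3.51 to 74.5 CPM in Tau+ and 0 to 14.2 in Tau- libraries, with a log2 fold change of 3.37 (SE 0.78, adjusted p = 0.0158). Cd68, a glycoprotein of lysosomes, showed the smallest called change, 0.45 (SE 0.13, adjusted p = 0.0265), and lost the call without any 1 of 7 libraries (replicates 1 and 4 of Ch25h+/+ Tau+, replicate 2 of Ch25h+/+ Tau-, replicates 2 and 4 of Ch25h-/- Tau+, or replicates 2 and 3 of Ch25h-/- Tau-), with an adjusted p of at most 0.0763. The choice of nuclei moved Lyz2 and the count. An unnamed cluster of 426 nuclei led by Mrc1 and Cd163, genes of border-associated macrophages, and also by Ms4a4b and Ikzf3, genes of lymphocytes, held Lyz2 at 821 CPM and Cybb at 264, against 54.2 and 31.2 in microglia. With that cluster added to microglia the log2 fold change was 0.16 for Lyz2, and 14 of 27 tested members were called higher, where 4.14% of all genes were, with a median of 1.03 for the members.

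Secreted factors held several of the largest changes. Spp1 (chr5:104435118-104441050), osteopontin, differed widely between Tau+ libraries. Spp1 stood at 134, 23.8, 5.76 and 70 CPM in replicates 1 to 4 of Ch25h+/+ Tau+, at 161, 14.6, 0 and 142 in Ch25h-/- Tau+, at 2.36, 2.66, 0 and 8.74 in Ch25h+/+ Tau- and at 0, 0, 0 and 7.71 in Ch25h-/- Tau-. It was high in replicates 1 and 4 of both Tau+ groups and between 0 and 23.8 CPM in replicates 2 and 3, with a log2 fold change of 4.75 (SE 1.28, adjusted p = 0.0356). Its call was lost without any 1 of 12 libraries, namely each of the 8 Tau- libraries and replicates 1 and 4 of either Tau+ group, with an adjusted p of at most 0.0918. Igf1 (chr10:87858265-87937042), insulin-like growth factor 1, was at 58.5, 69, 2.88 and 52.8 CPM in Ch25h+/+ Tau+ and 63.7, 18.8, 8.78 and 25.1 in Ch25h-/- Tau+, and at 0 to 8.74 in Tau- libraries, with a log2 fold change of 4.31 (SE 0.81, adjusted p = 0.00390). Csf1 (chr3:107741048-107760469), a ligand of the receptor CSF1R that microglia need to survive, was low in every Tau- library. Csf1 stood at 208, 105, 43.2 and 134 CPM in replicates 1 to 4 of Ch25h+/+ Tau+, at 166, 142, 22.8 and 77.1 in Ch25h-/- Tau+, at 14.1, 15.9, 24.8 and 13.1 in Ch25h+/+ Tau- and at 17.4, 1.92, 8.06 and 18 in Ch25h-/- Tau-. The log2 fold change was 3.08 (SE 0.52, adjusted p = 0.00281), and 7 Tau+ libraries lay above every Tau- library, with Ch25h-/- Tau+ replicate 3 below the highest of them.

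The chemokines Ccl3 and Ccl4, which attract leukocytes and whose genes lie next to each other on chromosome 11 (Ccl4 at chr11:83662584-83664683), also rose. Ccl4 stood at 94.7, 61.5, 25.9 and 67.5 CPM in replicates 1 to 4 of Ch25h+/+ Tau+, at 106, 106, 45.7 and 85.4 in Ch25h-/- Tau+, at 7.07, 29.2, 0 and 21.8 in Ch25h+/+ Tau- and at 2.48, 5.76, 4.03 and 0 in Ch25h-/- Tau-. Ccl4 had a log2 fold change of 3.42 (SE 0.43, adjusted p = 0.000155), the smallest adjusted p of the members that passed the filter. Only Ch25h+/+ Tau+ replicate 3 lay below the highest Tau- library. Ccl3 was at 8.64 to 72.4 CPM in Tau+ and 0 to 15.9 in Tau- libraries, with a log2 fold change of 3.28 (SE 0.60, adjusted p = 0.00287). Among immediate early genes, which tissue handling is known to induce, 2 of 7 tested rose, 0 fell and 5 did not pass the test, where 5.56% of all genes rose and 3.59% fell (Atf3 by 2.0, Nfkbiz by 1.46), and the summed level of the 15 listed genes, none of them at 0, was 216 to 411 CPM in Ch25h+/+ Tau+ compared with 138 to 268 in Ch25h+/+ Tau- and 262 to 445 in Ch25h-/- Tau+ against 170 to 291 in Ch25h-/- Tau-. Their part in the change of Ccl3 and Ccl4 was not tested. Ccl6, another macrophage chemokine, was at 20.1 to 49 CPM in Tau+ and 8.06 to 34.9 in Tau- libraries and was not called, with a log2 fold change of 0.50 (SE 0.25, adjusted p = 0.240). Lgals3bp, the galectin-3-binding protein, rose by 2.92 (SE 0.55, adjusted p = 0.00329) on the log2 scale.

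Of the remaining group, Myo5a, an actin-based motor of organelle transport, was at 366, 232, 57.6 and 285 CPM in Ch25h+/+ Tau+ and 245, 177, 40.4 and 117 in Ch25h-/- Tau+, and at 15.4 to 57.1 in Tau- libraries, with a log2 fold change of 2.39 (SE 0.47, adjusted p = 0.00649). By the estimate from near-empty barcodes, free RNA would account for 51.7% of the Tau- UMIs of Myo5a. Arhgap24, a GTPase-activating protein for RAC, rose by 1.28 (SE 0.22, adjusted p = 0.00246), and its libraries lay at 572, 532, 207 and 537 CPM in Ch25h+/+ Tau+ and at 249.9, 136, 159.5 and 232 in Ch25h+/+ Tau-. Ank, a transmembrane transporter linked to pyrophosphate and mineralisation, rose by 1.27 (SE 0.29, adjusted p = 0.0144), and Hif1a, the oxygen-regulated transcription factor, by 1.05 (SE 0.26, adjusted p = 0.0203). Without Ch25h-/- Tau- replicate 4 the adjusted p of Hif1a was 0.0509. Ftl1, the ferritin light chain, rose by 0.67 (SE 0.19, adjusted p = 0.0295) and lost the call without any 1 of 8 libraries, with an adjusted p of at most 0.0745. Those libraries were replicates 1 and 2 of Ch25h+/+ Tau+, 2 to 4 of Ch25h+/+ Tau-, 1 of Ch25h-/- Tau+, and 2 and 3 of Ch25h-/- Tau-. Fth1, the ferritin heavy chain, was at 307 to 511 CPM in Tau+ and 156 to 587 in Tau- libraries and was not called, with a log2 fold change of 0.32 (SE 0.22, adjusted p = 0.467). By the same estimate free RNA would account for 54.9% of microglial Fth1 UMIs and 16.9% of those of Ftl1. Both ferritin genes have processed copies that could take some of their reads.

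Cst7, Atp6v0d2, Capg, Lgals3 and Mamdc2 did not pass the filter on low counts, with 77 to 124 microglial UMIs each, and are given as UMIs. The Tau+ groups held 2992170 and 3023249 microglial UMIs (Ch25h+/+ and Ch25h-/-) and the Tau- groups 1383312 and 1646126. Cst7, which encodes the cathepsin inhibitor cystatin F, had 39, 3, 0 and 16 UMIs in replicates 1 to 4 of Ch25h+/+ Tau+ and 23, 23, 0 and 11 in Ch25h-/- Tau+, against 2 in all Tau- libraries. Atp6v0d2, a subunit of the vacuolar proton pump, had 49, 5, 0 and 19 in Ch25h+/+ Tau+ and 13, 7, 0 and 3 in Ch25h-/- Tau+, against 0 in all 8 Tau- libraries. Lgals3, galectin-3, had 44, 11, 1 and 25 in Ch25h+/+ Tau+ and 19, 11, 1 and 10 in Ch25h-/- Tau+, against 1 in Tau-. Each replicate 3 of Tau+ held 0 or 1 UMI of each of these 3 genes. Mamdc2, an extracellular protein with MAM domains, had 26, 9, 0 and 12 in Ch25h+/+ Tau+ and 23, 2, 0 and 2 in Ch25h-/- Tau+, against 3 in Tau-. Capg, an actin-capping protein, had 28, 15, 4 and 19 in Ch25h+/+ Tau+ and 17, 18, 2 and 9 in Ch25h-/- Tau+, compared with 2, 0, 2 and 1 in Ch25h+/+ Tau- and 3, 1, 2 and 1 in Ch25h-/- Tau-. An edgeR fit with no filter gave adjusted p-values for the tau effect over both genotypes. They were 2.68e-13 for Lgals3, 1.1e-05 for Capg, 3.43e-05 for Mamdc2, 0.00481 for Atp6v0d2 and 0.0915 for Cst7. Such values from few counts are unreliable and are not compared with those of the filtered fit. Lgals3 (122 UMIs in Tau+ against 1 in Tau-) and Cst7 (115 against 2) had similar totals and very unlike p-values.

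The same comparison within each Ch25h genotype gave fewer calls. In Ch25h+/+ libraries 6 of 26 members were higher with tau (Itgax, Lilrb4a, Cd52, Cd63, Lpl and Ccl4), where 1.43% of all genes were called higher, and their median log2 fold change over all 26 was 1.89. In Ch25h-/- libraries 3 were higher (Cd9, Ccl3 and Ccl4), where 1.16% of all genes were, with a median of 1.65. Lpl rose by 4.81 (SE 1.01, adjusted p = 0.0309) in Ch25h+/+ and had a value of 4.17 (SE 1.02, adjusted p = 0.0633) in Ch25h-/-. Ccl4 rose by 2.17 (SE 0.53, adjusted p = 0.0390) in Ch25h+/+ and 4.67 (SE 0.66, adjusted p = 0.00747) in Ch25h-/-. Of its 19 UMIs in Ch25h+/+ Tau- libraries, 11 came from 1 nucleus of replicate 2 and 5 from 1 nucleus of replicate 4. Without that replicate 2 the log2 fold change of Ccl4 in Ch25h+/+ was 2.90 (adjusted p = 0.0486), and without that replicate 4 it was 2.34 (adjusted p = 0.0867). Both counts turned on single libraries: in Ch25h+/+ the count was 20 of 29 tested without Tau+ replicate 3, where 3.44% of all genes were called higher. It was 0 without any 1 of replicates 1, 2 and 4 of Tau+ or replicates 1, 3 and 4 of Tau-, where the share of all genes was also lower, at 0.120% to 0.455%. In Ch25h-/- the count was 18 of 28 without Tau+ replicate 3, where 2.97% of all genes were called higher, and 0 of 28 without Tau- replicate 2, where 0 of all 8335 genes were. Without both replicates 3 together, 23 of 29 tested members were called higher in Ch25h+/+ and 24 in Ch25h-/-, where 4.27% and 3.76% of all genes were. DESeq2 called 13 of 31 higher in either genotype, where it called 0.703% of all genes higher in each (151 of 21476). That share is over every gene with a UMI. The main shares are over the 8438 genes that passed the filter, of which 121 in Ch25h+/+ and 98 in Ch25h-/- were called higher. The shares of DESeq2 and of the main fit are therefore not comparable. With the split of the libraries as a block, 12 and 7 of 26 members were called higher, where 3.13% and 2.29% of all genes were. The split was drawn from the spread within groups of these same counts. Fitting it lowers that spread by construction, so the gain in calls is no independent check. Replicates 1 and 2 alone gave 15 and 13 of 31 members, where 2.63% and 2.50% of all genes were called higher, and replicates 3 and 4 alone gave 0 in both, and 0 over both genotypes together (edgeR, 6 of 7589 genes called, and 848 at an unadjusted p under 0.05, with 722 in Ch25h+/+ and 492 in Ch25h-/-). In replicates 3 and 4 alone the median log2 fold change of the 24 tested members was 1.20 in Ch25h+/+, 1.17 in Ch25h-/- and 1.30 over both, where that of all genes over both was 0.0051.

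**Figure D2:**
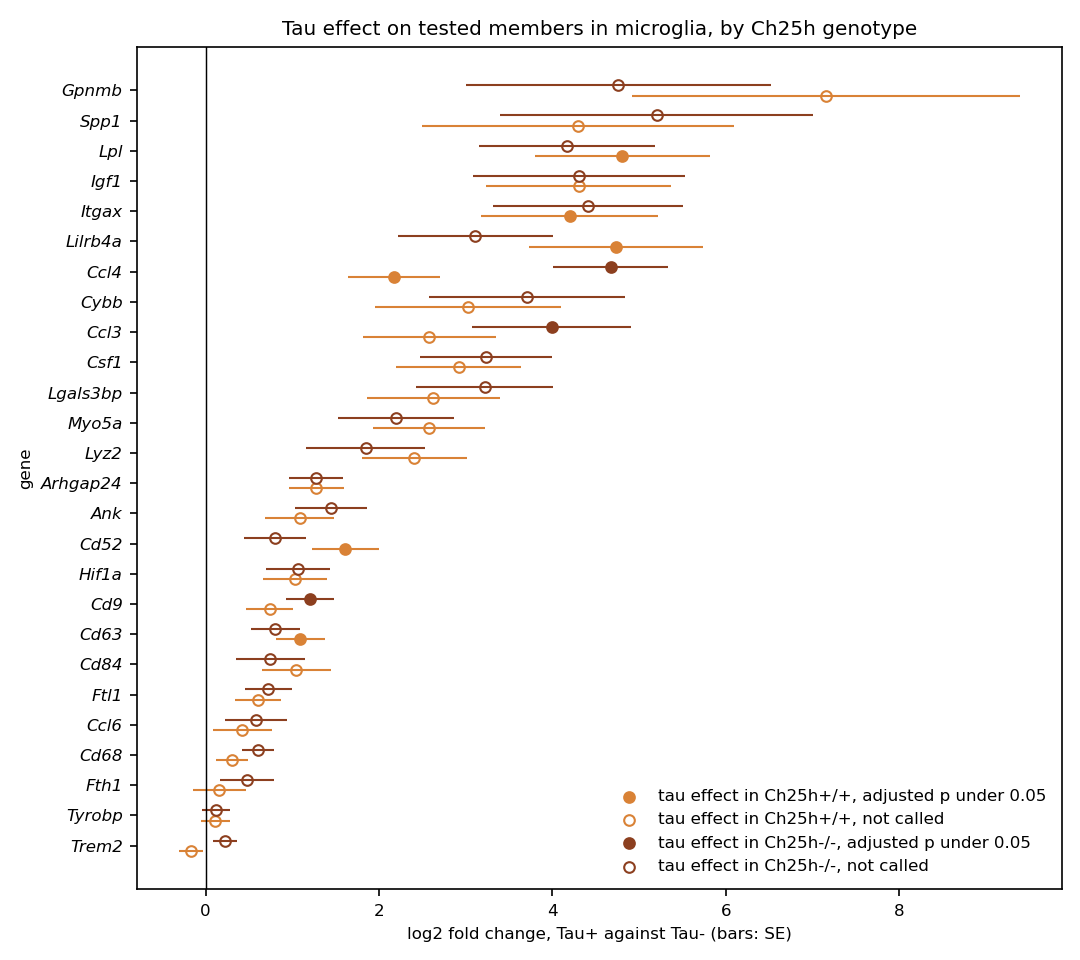
Log2 fold change of Tau+ against Tau- in microglia for the 26 tested members, in Ch25h+/+ (lighter) and Ch25h-/- libraries (darker). Bars are 1 SE derived from the test's F statistic, and points are filled where the adjusted p was under 0.05. Ccl4 is the one member called in both, at 2.17 and 4.67, and Trem2, Tyrobp and Fth1 lie nearest to 0. The point of Gpnmb in Ch25h+/+, at 7.15, has 0 Tau- UMIs behind it, so its size is not determined. With a floor of 3 counts the pooled UMIs give only a bound of 15.2-fold (3.93 on the log2 scale).

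Whether the tau effect differed between the Ch25h genotypes was tested directly, and 0 of 26 members were called, as were 0% of all 8438 genes (edgeR, 303 at an unadjusted p under 0.05). Ccl4 was the one member with an unadjusted p under 0.05 for this difference (0.0291, adjusted p = 0.9999), and its Ch25h+/+ Tau- level rests mostly on the 2 nuclei named above. Between libraries labelled Ch25h-/- Tau+ and Ch25h+/+ Tau+, 0 members and 0% of all genes were called (edgeR, 271 genes at an unadjusted p under 0.05, DESeq2 1 gene). In that comparison 20 of the 26 members had values below 0, with a median of -0.19, where the median of all genes was -0.00. The same tally was 20 of 26 in Tau- libraries, with a median of -0.43, and 21 of 26 over both tau states, with a median of -0.31. Between the Tau+ groups the values ranged from -1.12 for Lyz2 (SE 0.45, unadjusted p = 0.0255, adjusted p = 0.999) to 0.39 for Ccl4. Between the Tau- groups they ranged from -2.10 for Ccl4 to 1.91 for Gpnmb, and over both tau states from -0.85 for Ccl4 to 0.72 for Gpnmb. Gpnmb had 0 UMIs in Ch25h+/+ Tau- and 1 in Ch25h-/- Tau-, so these values of Gpnmb have no reliable size. Other members also had few UMIs in these groups, such as Itgax (4 and 3), Igf1 (3 and 2) and Spp1 (4 and 3). The tally and median in Tau- libraries rest partly on such counts. In the Tau+ comparison Lpl had a value of -0.63 (SE 0.51, adjusted p = 0.999), Lilrb4a of -0.75 (SE 0.57, adjusted p = 0.999) and Igf1 of -0.74 (SE 0.54, adjusted p = 0.999). Between libraries labelled Ch25h-/- Tau- and Ch25h+/+ Tau-, 0 members and 0% of genes were called (edgeR, 279 at an unadjusted p under 0.05), and Trem2, at 488, 321, 393 and 349 CPM in Ch25h+/+ and 253, 286, 306 and 337 in Ch25h-/-, had a log2 fold change of -0.40 (SE 0.14) and an unadjusted p of 0.00997, and was not called. Ccl4 had -2.10 (SE 0.99, adjusted p = 1) in that comparison, with an unadjusted p of 0.0491. Over both tau states 0 members were called, where 0.0119% of genes were (1 gene by edgeR, 287 at an unadjusted p under 0.05).

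A summed level does not show how the members were spread over nuclei, so they were also counted in single nuclei. With few UMIs per nucleus this count also rises with RNA per nucleus. It cannot separate that from more nuclei with a gene. Each of the 5412 microglial nuclei with at least 800 UMIs was thinned to 800, and 397 shallower nuclei were left out. Nuclei kept were 1713 of 1746 in Ch25h+/+ Tau+ and 1665 of 1726 in Ch25h-/- Tau+. In Ch25h+/+ Tau- they were 966 of 1141 and in Ch25h-/- Tau- 1068 of 1196. The mean number of members with a UMI per nucleus was 3.72, 2.84, 1.45 and 3.12 in replicates 1 to 4 of Ch25h+/+ Tau+, 2.96, 2.71, 1.59 and 2.56 in Ch25h-/- Tau+, 1.74, 1.36, 1.45 and 1.44 in Ch25h+/+ Tau- and 1.44, 1.24, 1.33 and 1.23 in Ch25h-/- Tau-. Without thinning it was 2.48 to 6.02 in Tau+ and 1.80 to 2.53 in Tau- libraries. Nuclei with at least 5 members made up 32.9, 16.2, 2.16 and 22.8% of microglia in Ch25h+/+ Tau+ and 23.1, 17.1, 2.85 and 14.7% in Ch25h-/- Tau+, and at most 3.65% in any Tau- library. The 2 libraries of replicate 3 lay within or next to the Tau- range on both measures, and the 6 other Tau+ libraries above it. Nuclei with at least 8 members numbered 67 and 38 in the Tau+ groups, and 1 and 0 in the Tau- groups. The 2 Tau+ groups overlapped throughout.

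**Figure D3:**
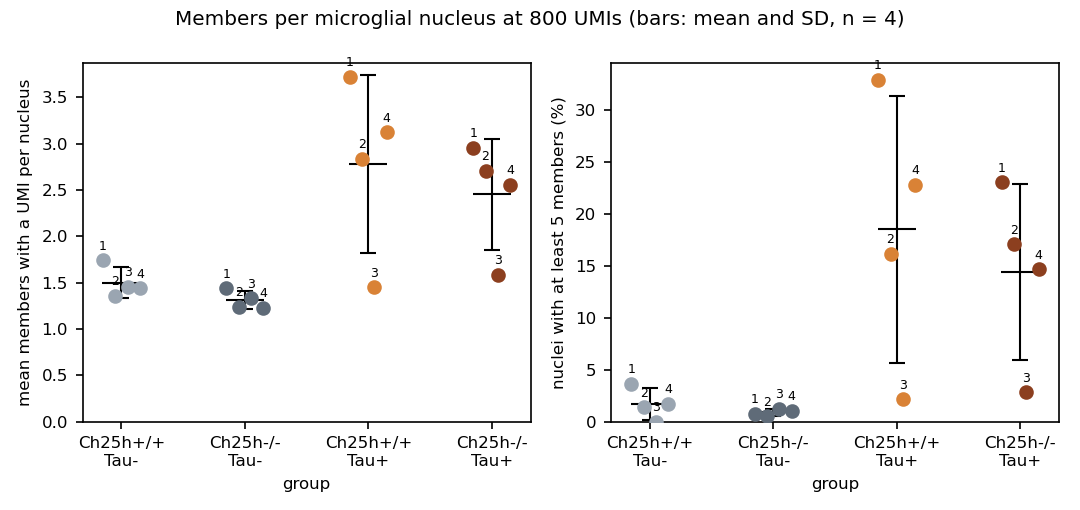
Mean number of members with a UMI per microglial nucleus (left) and percentage of nuclei with at least 5 members (right), at 800 UMIs per nucleus, by group. Points are libraries marked with their replicate number and bars are the mean and SD of 4, and replicate 3 of both Tau+ groups (1.45 and 1.59 members) sits with the Tau- libraries at 1.23 to 1.74.

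Within the Tau+ libraries, nuclei that held an Lpl UMI were set beside those that held none, library by library, to see which members were read in the same nuclei. Lpl was chosen for this with its values known. The 6 Tau+ libraries with at least 10 such nuclei gave 157 nuclei with Lpl and 2604 without, and the 2 replicates 3, with 0 and 8, were not used. Shares are means over the 6 libraries, and nuclei of 1 library share their source, so no test was made. Of the 30 other members 28 had a higher mean share in Lpl nuclei, 12 of them in every library. The share over all genes was not computed for this comparison. The counts of members, and of homeostatic genes below, therefore have no background to be read against. Csf1 was read in 24% against 6.36%, Lilrb4a in 34.4% against 9.99%, Myo5a in 32.6% against 12.6%, Igf1 in 10.1% against 2.50% and Itgax in 11.9% against 3.53%, each higher in 6 of 6 libraries. Spp1 was read in 13.8% against 2.82% and was higher in 5 of 6. Trem2 (23.8% against 23.5%) and Cst7 (1.92% against 1.78%) were each higher in 2 of 6 libraries. Of 30 genes of homeostatic microglia 26 had a lower mean share in Lpl nuclei, 8 of them in every library. P2ry12, the ADP receptor of surveying microglia, was read in 26.3% against 45.9% and Siglech, a sialic acid-binding lectin, in 14.1% against 36.4%, each lower in 6 of 6 libraries. Without thinning and over all libraries, Itgax was read in 4.30% of microglia (median 1449 UMIs) and in 0.0273% of dentate granule neurons (median 5740 UMIs), which should lack it, while Lpl was read in 4.85% and 2.96%. P2ry12 was read in 69.6% of microglia and 44.4% of dentate granule neurons on the same terms.

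**Figure D4:**
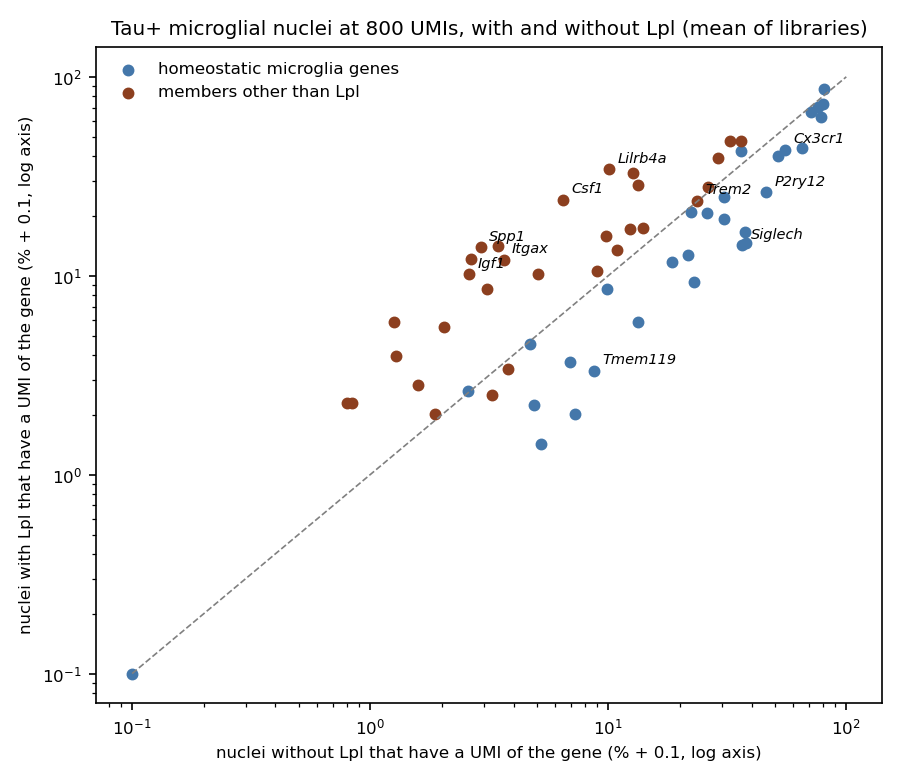
Percentage of Tau+ microglial nuclei with a UMI of each gene among nuclei without Lpl (x axis) and with Lpl (y axis), as means over 6 libraries at 800 UMIs, with 0.1 added and on log axes. Members other than Lpl lie mostly above the dashed line of equal shares and homeostatic genes mostly below it.

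Other genes of the same biology were taken from lists. Of 25 tested disease-associated genes outside the members 17 rose with tau and 0 fell, with a median of 0.85, where 5.56% of all genes rose and 3.59% fell. They were led by Axl (4.77), a receptor for apoptotic cells, Rai14 (3.95), Ctse (3.16), a cathepsin, and Cd74 (2.95), the invariant chain of MHC class II. Of 29 tested homeostatic genes 14 fell and 1 rose, with a median of -0.34. Slc2a5, a fructose transporter, had -1.02, Tmem119 -0.89, P2ry13, a purine receptor, -0.78 and Cst3, cystatin C, -0.64, and the gene that rose was Tgfbr2 (0.34). Of 16 tested genes that signal with or regulate TREM2, 2 rose (Lat2 by 0.76, Ms4a6d by 0.70) and 1 fell (Pik3r1, -0.42), counts near those shares. Of 14 transcription factors linked to activation 4 rose and 0 fell: Atf3 (2.0), Relb (1.16), Mitf (0.77), a regulator of lysosomal genes, and Nfkb1 (0.37). Of 19 tested interferon-stimulated genes 16 rose and 0 fell, led by Oasl2 (4.37), Ifi207 (4.02), Ifi204 (3.53) and Usp18 (3.1). The members and all these lists share the same libraries, so their changes are given side by side only.

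Markers of other immune cells were measured in the same microglial nuclei. The summed level of 8 markers of border-associated macrophages was 151 to 320 CPM in Ch25h+/+ Tau+ and 166 to 232 in Ch25h-/- Tau+, against 258 to 376 and 231 to 308 in the Tau- groups. Most of that sum was Stab1, a scavenger receptor with 888 UMIs in Tau+ and 764 in Tau- libraries, which fell by 0.76 on the log2 scale (SE 0.157, adjusted p = 0.00412). Per 1000000 microglial UMIs Stab1 was at 148 in Tau+ and 252 in Tau-. Ms4a7 (117 and 14 UMIs) was at 19.4 and 4.62, F13a1 (17 and 2 UMIs) at 2.83 and 0.660, and Mrc1 (31 and 17 UMIs) at 5.15 and 5.61. Microglial UMIs in all were 2992170 and 3023249 in the Tau+ groups and 1383312 and 1646126 in the Tau- groups (Ch25h+/+ and Ch25h-/-). Ms4a7, the only other one tested, was not called, with a log2 fold change of 1.89 (SE 0.767, adjusted p = 0.159). Cd163 and Pf4 had 1 and 2 UMIs in Tau+ and 0 in Tau-, and Lyve1 and Cbr2 had 0 and 1 each. Of 12 markers of monocytes and dendritic cells Ly6c2 and Ifitm6 were at 0 in all 16 libraries, and their sum was 30.7 to 80.8 CPM in Tau+ and 40.1 to 80.7 in Tau- libraries. Ly6g, which defines neutrophils, was at 0, as were Cd3e, Trac, Trbc2, Cd8a and Nkg7 of T and NK cells. The sum of 8 neutrophil markers was 2.13 to 33.5 CPM in Tau+ and 0 to 4.97 in Tau- libraries, and that of 10 T and NK cell markers 0 to 20.2 and 0 to 10.6. In nuclei without a UMI of any of these markers 15 of 24 tested members were called higher with tau, where 5.41% of all 7002 genes were. After subtraction of the expected free RNA 21 of 26 were, where 5.75% of all 7629 genes were.

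Across all classes of nuclei, pooled over the 16 libraries, 12 of the 31 members had their highest level in microglia and 9 in the cluster led by Mrc1. In Tau+ libraries alone these counts were 15 and 8, and in Tau- libraries alone 2 and 15. Microglia held 88.1% of all Cd84 UMIs, 87.1% of those of Itgax, 86.6% of Ccl3 and 80.9% of Trem2. Other members were read mostly elsewhere: microglia held 0.845% of Mamdc2 UMIs, 0.846% of Myo5a, 1.29% of Ank, 2.46% of Igf1 and 8.27% of Lpl. Pooled over Tau+ and Tau- libraries, Igf1 was at 105 CPM in inhibitory neurons and 27.3 in microglia, Spp1 at 102 in fibroblasts and 48.2 in microglia, Csf1 at 101 in oligodendrocytes and 84.8 in microglia, and Gpnmb at 25.8 in oligodendrocyte precursors and 18.9 in microglia. The order of the last pair of genes differed with tau: in Tau+ libraries Csf1 was at 111 CPM in oligodendrocytes and 121 in microglia, and Gpnmb at 21.5 in the precursors and 28.3 in microglia, while in Tau- libraries Csf1 was at 81.7 and 12.9 and Gpnmb at 30.6 and 0.330. No test was made of these orders. Fth1 was highest in endothelial cells (1176) and oligodendrocytes (907).

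**Figure D5:**
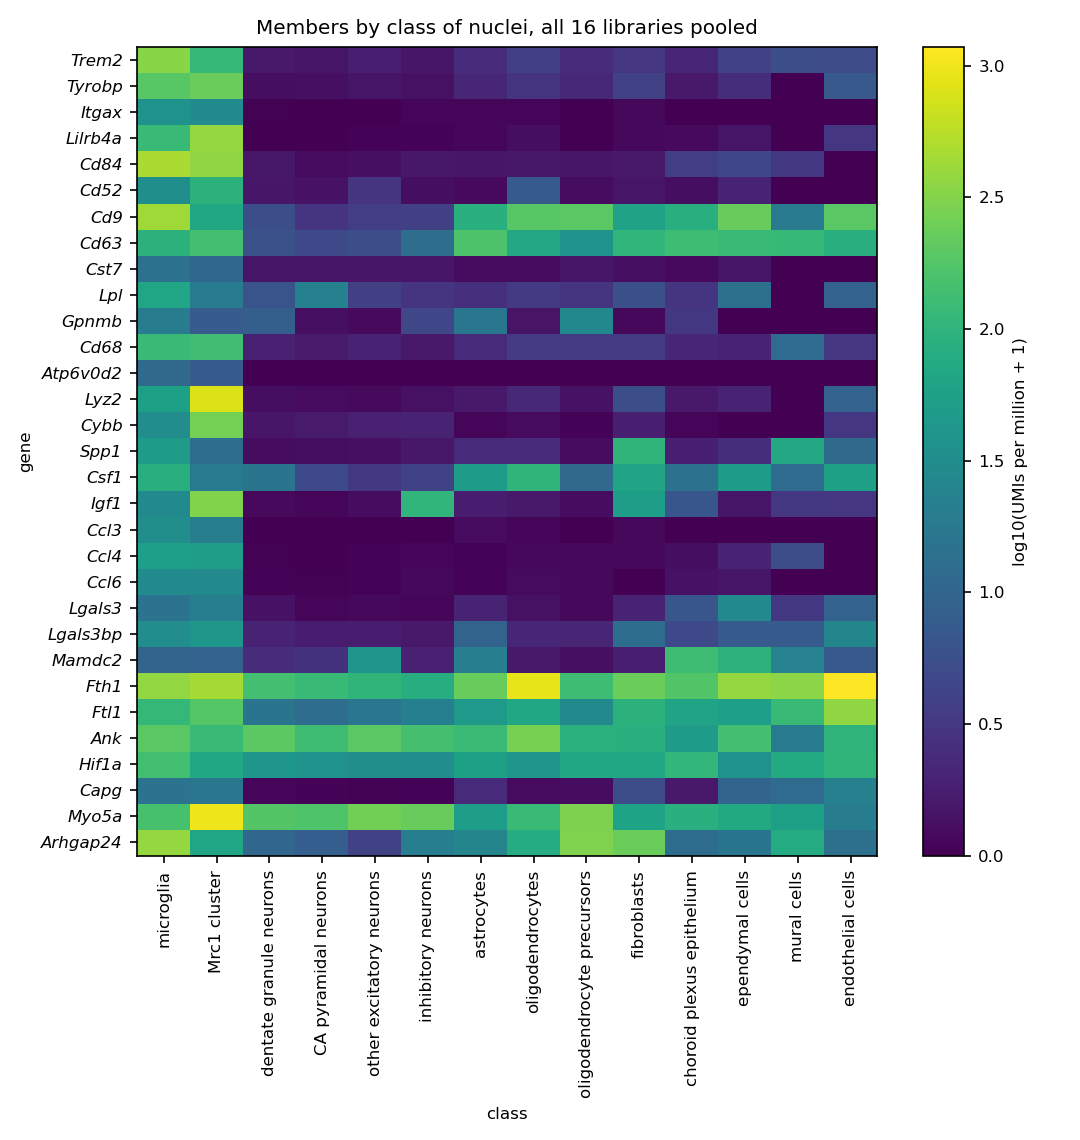
Level of each member (rows) in 14 classes of nuclei (columns), pooled over 16 libraries, as log10 of CPM plus 1. Trem2, Cd84, Itgax and Ccl3 are brighter in microglia and in the cluster led by Mrc1 than elsewhere, while Fth1, Ank and Myo5a are bright in most columns.

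The tau effect was then tested in the 7 other classes that reached 20 nuclei in all 16 libraries. In astrocytes 4 of 12 tested members rose and 0 fell, where 2.58% of genes were called higher. Mamdc2 was at 34.4, 23.7, 29.2 and 29 CPM in Ch25h+/+ Tau+ and 32.1, 26.8, 13 and 30.2 in Ch25h-/- Tau+, compared with 13.9, 10.7, 11.9 and 6.19 in Ch25h+/+ Tau- and 19.7, 11.4, 8.53 and 9.28 in Ch25h-/- Tau-. Replicate 3 of Ch25h-/- Tau+ was its one Tau+ library inside the Tau- range, and the log2 fold change was 1.27 (SE 0.19, adjusted p = 0.00147). Gpnmb was at 31.7, 25.4, 10 and 20.7 CPM in Ch25h+/+ Tau+, 32.4, 47, 5.66 and 17.7 in Ch25h-/- Tau+, 5.41, 7, 7.81 and 0.774 in Ch25h+/+ Tau- and 5.85, 5.44, 6.56 and 6.30 in Ch25h-/- Tau-, with the same library inside the Tau- range and a log2 fold change of 2.05 (SE 0.40, adjusted p = 0.0110). Csf1 rose by 0.72 (SE 0.14, adjusted p = 0.00836) and Lgals3bp by 1.47 (SE 0.32, adjusted p = 0.0132). Members read mainly in microglia were near 0 in astrocytes, with Cd84 at 0.531 and Itgax at 0.112 CPM over all libraries. Leaving out any 1 library left at least 4 members called in astrocytes.

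In oligodendrocyte precursors 1 of 9 tested members rose, Cd9 by 0.47 (SE 0.10, adjusted p = 0.0218), where 0.170% of genes were called higher, and that call was lost without any 1 of 7 libraries. They were replicates 1 and 4 of Ch25h+/+ Tau+, 2 of Ch25h+/+ Tau-, 1 and 2 of Ch25h-/- Tau+, and 2 and 3 of Ch25h-/- Tau-. In mature oligodendrocytes 0 of 10 were called higher, where 0.192% of genes were (edgeR, 1206 genes at an unadjusted p under 0.05). Csf1 had 0.44 (SE 0.11, adjusted p = 0.0922) there, and was the 1 member called by DESeq2 and with the split of the libraries as a block. Those settings called 99 of 23850 and 114 of 11952 genes in either direction. Dentate granule, CA pyramidal, other excitatory and inhibitory neurons had 0 of 12 or 13 tested members called by edgeR, where 0.0464%, 0.0249%, 0.026% and 0.0205% of genes, in that order, were called higher, with 909 to 1466 genes at an unadjusted p under 0.05. Lpl, which rose in microglia, had negative values in neurons: -1.49 (SE 0.40, adjusted p = 0.247) in dentate granule neurons and -0.72 (SE 0.19, adjusted p = 0.246) in CA pyramidal neurons by edgeR, and DESeq2 called it lower in both. In CA pyramidal neurons Lpl was at 19.1, 12.6, 16.6 and 13 CPM in Ch25h+/+ Tau+ and 11.6, 15.2, 20.8 and 20 in Ch25h-/- Tau+, compared with 15.5, 33.8, 23.7 and 14.4 in Ch25h+/+ Tau- and 27, 36, 26.7 and 37.7 in Ch25h-/- Tau-. Tau+ and Tau- overlapped in Ch25h+/+ and did not in Ch25h-/-. Whether the tau effect on Lpl differs between microglia and neurons was not tested.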

How the data were processed

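Single-nucleus RNA of 16 hippocampal libraries was measured with 10x 3' chemistry. The deposited values are raw counts of UMIs per gene and barcode, for build mm10, made with Cell Ranger 3.1.0 per the submitters' processing notes (the file headers name version 4). Barcodes with at least 500 UMIs, 300 genes and at most 5% mitochondrial UMIs were kept, doublets by score were removed, and nuclei were clustered (scanpy 1.11.5, igraph 0.11.9, Python 3.11.15) on 3000 variable genes with the members left out. Of 52 clusters, 23 stayed unnamed. UMIs were summed per library and class where every library had at least 20 nuclei, and tested with edgeR 4.0.16 in R 4.3.3 (TMM, robust quasi-likelihood, a mean per group over all 16 libraries, Benjamini-Hochberg over all genes passing filterByExpr). The SE of a log2 fold change was derived from its F statistic and is not a fitted standard error. It can therefore differ between comparisons of equal weights. For Lpl in microglia it was 0.72 for the tau effect over both genotypes and 1.10 for Ch25h loss over both tau states. CPM are UMIs per 1000000 of the class. Values of single libraries in microglia are TMM-scaled, and values pooled over libraries are not. Libraries held 51270800 to 84870600 UMIs. A bound against 0 uses a floor of 3 counts. Free RNA was estimated from barcodes under 100 UMIs. Their profile was scaled so that all microglial UMIs of 10 neuronal genes counted as free. The estimate is too high where microglia make any of those RNAs.

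On simulated counts for the microglial tau effect (8138 genes, 50 changed per size), 86%, 98%, 96% and 88% of genes changed by 1, 2, 3 and 4 on the log2 scale were recovered. The counts were drawn independently around 1 overall mean per gene, with no libraries low as a set and no split. These shares therefore do not give the power for the members here. Alternatives were DESeq2 1.42.0, median-ratio size factors, no filter, other gates, clusters and depth cuts, subtraction of free RNA, the split of libraries, and each library left out. The members and lists were chosen with earlier results of these data known. All members are named, and of other lists up to 4 called genes per direction with the largest change.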

Additional observations from a re-analysis of the deposited data

Results flagged for a closer look

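In 104 groups of 4 libraries (26 tested members in 4 groups), 6 held a microglial library far from the other 3. Chance flags about 1 in 20 when values are independent and normally distributed. Members share libraries, and 3 of the flags are members with 1 to 5 UMIs, all in 1 library. That rate is therefore no guide to the number of flags here. Arhgap24 was at 207 CPM in Ch25h+/+ Tau+ replicate 3, against 532 to 572 in the other 3 libraries. Lgals3bp was at 7.02 CPM in Ch25h-/- Tau+ replicate 3, against 52.3 to 57.0. Lgals3bp was also at 14.2 CPM in Ch25h+/+ Tau- replicate 3, against 4.37 to 5.31, from 4 UMIs. In Ch25h-/- Tau- a single library held all UMIs of 3 members: Cybb at 12.4 CPM in replicate 1 from 5 UMIs, Spp1 at 7.71 CPM in replicate 4 from 3 UMIs, and Gpnmb at 1.92 CPM in replicate 2 from 1 UMI.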

How the results depend on the processing

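Of the 21 members called over both Ch25h genotypes, 16 stayed called without any 1 library, and none changed sign in 626 alternative values (539 kept their call, 87 lost it). A member that was not tested under an alternative, or had no adjusted p there, gave no value and is in neither count. The share of all genes called higher under the same setting is given in brackets after a count of members. With DESeq2 and with no filter it is over 21476 genes, and in the main fit over 8438, so those shares are not comparable. The count of 21 of 26 (5.56%) was 18 to 25 of 26 to 29 with 1 library left out (4.07% to 6.55%) and 14 to 25 of 24 to 31 under all other settings (2.22% to 7.33%) but replicates 3 and 4 alone, which gave 0 of 24 (0.0527%). The members' median log2 fold change was 1.70, and 1.30 in replicates 3 and 4, 2.68 in replicates 1 and 2, 1.06 with members among the variable genes, 1.03 with the Mrc1 cluster added, and 1.18 and 1.26 with marker gates (doublets kept or removed). In Ch25h+/+ the count of 6 of 26 (1.43%) became 13 of 31 with DESeq2 (0.703%), 12 of 26 with the split as a block (3.13%), 13 of 31 with no filter (1.85%), 15 of 31 in replicates 1 and 2 (2.63%), 0 of 24 in replicates 3 and 4 (0%), 3 of 26 in nuclei of at least 1000 UMIs (0.995%), 2 of 28 and 3 of 27 with marker gates (0.390% and 0.982%), 3 of 27 with members among the variable genes (0.991%), 3 of 27 with the Mrc1 cluster added (1.07%), 23 of 29 without both Tau+ replicates 3 (4.27%), and 0 to 20 with 1 library left out (0.120% to 3.44%). In Ch25h-/- the count of 3 of 26 (1.16%) became 13 of 31 with DESeq2 (0.703%), 7 of 26 with the block (2.29%), 9 of 31 with no filter (1.52%), 13 of 31 and 0 of 24 on the sides of the split (2.50% and 0.0132%), 5 of 19 with only the groups compared (1.43%), 7 of 26 in nuclei of at least 1000 UMIs (1.48%), 5 of 28 with the gate that kept doublets (0.470%), 6 of 24 without other immune markers (1.59%), 24 of 29 without both Tau+ replicates 3 (3.76%), and 0 to 18 with 1 library left out (0% to 2.97%). Elsewhere the brackets hold genes called in either direction. DESeq2 called 1 of 31 members lower in CA pyramidal neurons (49 of 27203) and 1 of 31 lower in dentate granule neurons (89 of 26392). It called 1 of 30 higher in oligodendrocytes (99 of 23850), and the block called 1 of 10 higher there (114 of 11952). Leaving out 1 library gave 0 to 1 in dentate granule neurons, oligodendrocytes and precursors, with no share of all genes given. The count was 1 in dentate granule neurons without Ch25h-/- Tau+ replicate 3, and in oligodendrocytes without replicate 3 of either Tau+ group. Ccl6 reversed to -0.15 in replicates 3 and 4. Trem2 reversed to -0.011 after subtraction of free RNA and lay between -0.023 and 0.087 with 1 library left out. The cause of these changes was not tested. Few UMIs per library limit Cst7, Atp6v0d2, Lgals3, Mamdc2, Capg and Gpnmb. No paired analysis was possible because no label pairs the libraries. The block above is the split made from the data, so its gain in calls is no independent check.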

Other observations

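Measured as a share of all microglial UMIs, the 31 members made up 0.616%, 0.454%, 0.226% and 0.516% in replicates 1 to 4 of Ch25h+/+ Tau+ and 0.533%, 0.419%, 0.234% and 0.407% in Ch25h-/- Tau+. The share was 0.209% to 0.259% in Ch25h+/+ Tau- and 0.173% to 0.215% in Ch25h-/- Tau-. Both replicates 3 lay beside the Tau- libraries on this measure.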
